A study of Mus musculus with 6 samples.

Results

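Cell cycle inhibitors, the p53 pathway and markers of cellular senescence were described in the atria of old mice through 10 genes chosen by name, Cdkn1a, Cdkn1b, Cdkn2a, Cdkn2b, Cdkn2c, Trp53, Mdm2, Gdf15, Glb1 and Lmnb1. They are 10 of the 54838 genes in the count table, all 10 were found in it by Ensembl identifier, and 9 had enough counts to be among the 14708 genes tested. Atrial RNA came from 6 mice with an average age of 20.9 ± 0.43 months, of both sexes, with 1 library per mouse and 3 libraries labelled for each genotype, namely knockout (KO) of Prkce, the gene of protein kinase C epsilon, and WT (wild type). No treatment separates the groups. The labels place KO mice in a Jackson Laboratory stock line and WT mice in C57BL/6J, so line and genotype cannot be told apart. Total counts ran from 14015308 to 20152576 in the libraries labelled KO and from 11574206 to 24138824 in those labelled WT.

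The labels contradict each other for 4 of the 6 libraries, and this bears on every comparison below. KO and WT stand here for the genotype in the library name, which is also the name of the column of counts. The genotype field reads KO for KO replicate 1, WT replicate 2 and WT replicate 3, and WT for KO replicate 2, KO replicate 3 and WT replicate 1. The sample titles name the same genotype as this field for all 6 libraries. Replicate numbers come from these titles, so KO replicate 2, for example, is the mouse titled as WT number 2. Both readings were tested. Prkce itself was at 9.19, 5.14 and 28.6 CPM (counts scaled to library depth) in the libraries labelled KO, replicates 1 to 3, against 36.2, 11.7 and 30.2 CPM in those labelled WT, so KO replicate 3 and WT replicate 2 stood against their library names. Under the genotype field it is KO replicate 2 and WT replicate 3 that stand against their label. Summed Y-linked genes were at 126, 84.0 and 78.8 CPM in the libraries labelled KO against 1.08, 1.09 and 146 CPM in those labelled WT, so sex is uneven between groups by library name. The summed level of Nppa, Myl7, Myl4, Sln, Tnni3, Tnnt2, Ryr2 and Myh6, markers of atrial and other cardiomyocytes, lay between 48700 and 57200 CPM in all 6 libraries, with none of the 8 at 0.

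Cellular senescence is a lasting exit from the cell cycle. In the textbook scheme, p53, the product of Trp53 in the mouse, is held low by the ubiquitin ligase MDM2 and, once stabilised by DNA damage or other stress, induces Cdkn1a, Mdm2 itself and other targets. A separate arm runs through the INK4 inhibitors of the cyclin D kinases, encoded by Cdkn2a, Cdkn2b and Cdkn2c, to the retinoblastoma protein. Lysosomal beta-galactosidase, encoded by Glb1, gives the enzyme stain used to mark senescent cells, lamin B1, encoded by Lmnb1, is lost from their nuclei, and many of them secrete cytokines, chemokines and proteases. Cardiomyocytes of the adult heart hardly divide, and the same inhibitors are also studied in them and in fibroblasts and endothelial cells of the ageing heart.

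Cdkn1a had the highest mean level per kilobase of the 10 genes and the largest spread among the 7 with a mean of at least 5 CPM. Per kilobase of annotated exon, the mean level over the 6 libraries was 17.4 CPM for Cdkn1a, 14.2 for Glb1, 13.9 for Mdm2, 8.63 for Cdkn2c, 7.25 for Cdkn1b, 7.12 for Trp53, 2.76 for Lmnb1, 0.927 for Cdkn2b, 0.781 for Gdf15 and 0.190 for Cdkn2a. In this order the ranges over the libraries of Cdkn1a (6.87 to 34.7 CPM per kilobase), Glb1 (12.7 to 15.6) and Mdm2 (12.8 to 14.9) overlapped. So did those of Cdkn2c (7.67 to 10.5), Cdkn1b (5.76 to 9.86) and Trp53 (4.81 to 8.40). Lmnb1 (1.90 to 3.38) stood clear of its neighbours, and the range of Gdf15 (0.356 to 1.37) overlapped those of Cdkn2b (0.633 to 1.27) and Cdkn2a (0.0747 to 0.409), which did not overlap each other. In bulk tissue, fewer cells of a type and less RNA per cell cannot be told apart.

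**Figure D1:**
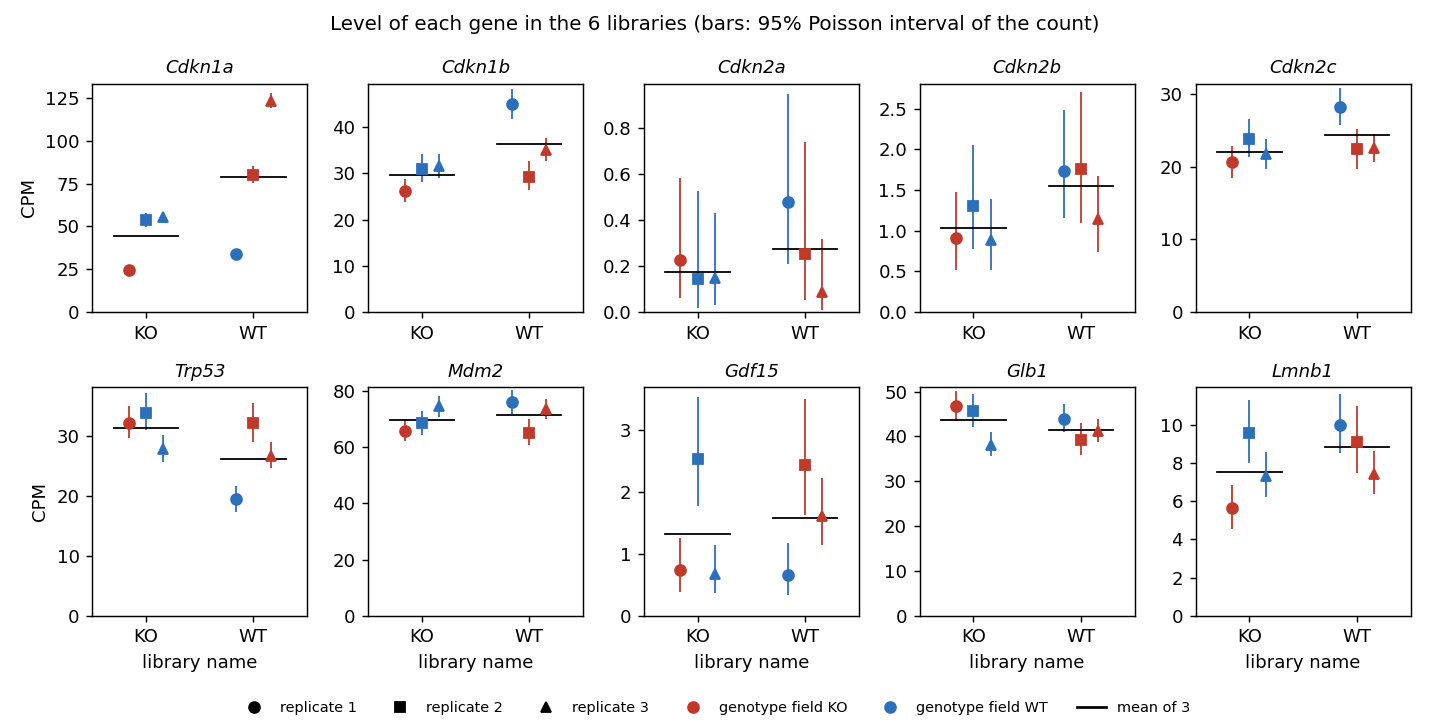
Level of each of the 10 genes in CPM, with libraries placed by library name (KO left, WT right), shaped by replicate number and coloured by genotype field. Bars are 95% Poisson intervals of the count and lines are means of 3 libraries. Cdkn1a spreads from 24.4 to 123 CPM while Mdm2 stays between 65.2 and 76.0 CPM, and for each gene the KO and WT libraries overlap.

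Cdkn1a encodes p21, the inhibitor of cyclin-dependent kinases that p53 induces to stop the cell cycle. The gene (ENSMUSG00000023067) lies on the plus strand of chromosome 17 at 29090976 to 29100727 (GRCm38). Of its exon bases 92.3%, and of its gene body 89.3%, are free of other genes. The rest is shared with AC167363.2 on the opposite strand, which had 0 counts in every library. Reads over the shared part can be lost, so these 0 counts do not show that AC167363.2 was silent. RefSeq (GRCm38.p6) lists starts for Cdkn1a at separate places, and the 250 bases before both of them, and before starts of Mdm2 and Gdf15, are shown. They hold, or lack, a match to the decamer that p53 binds in pairs. Capitals mark motifs found by script on both strands, namely the p53 motif, the GC box GGGCGG (in 32.7% of all promoter windows), the CCAAT box CCAAT (33.8%), the TATA box TATAAA (12.4%), the E-box CACGTG (6.02%), the AP-1 site TGANTCA (6.75%), the CRE TGACGTCA (1.55%), the ATF4 site TGATGNAA (3.45%) and the heat shock element (0.466%). No matches overlap in the windows shown.
Cdkn1a, upstream start, chr17:29090729-29090978, plus strand: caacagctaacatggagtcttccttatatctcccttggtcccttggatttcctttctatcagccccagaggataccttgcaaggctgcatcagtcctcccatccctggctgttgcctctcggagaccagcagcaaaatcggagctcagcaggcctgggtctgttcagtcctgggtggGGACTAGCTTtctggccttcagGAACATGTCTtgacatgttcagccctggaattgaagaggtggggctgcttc
Cdkn1a, downstream start, chr17:29093519-29093768, plus strand: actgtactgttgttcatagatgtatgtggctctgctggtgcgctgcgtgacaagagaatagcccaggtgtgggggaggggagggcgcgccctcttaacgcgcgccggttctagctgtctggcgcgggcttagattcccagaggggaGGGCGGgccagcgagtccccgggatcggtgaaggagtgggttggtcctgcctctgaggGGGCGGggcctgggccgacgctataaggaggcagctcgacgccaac
Mdm2, chr10:117710759-117711008, minus strand: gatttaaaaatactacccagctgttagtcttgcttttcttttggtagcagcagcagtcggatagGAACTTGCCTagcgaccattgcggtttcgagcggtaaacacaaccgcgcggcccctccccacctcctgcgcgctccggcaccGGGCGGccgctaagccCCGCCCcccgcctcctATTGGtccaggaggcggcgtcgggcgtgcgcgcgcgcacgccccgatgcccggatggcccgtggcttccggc
Gdf15, chr8:70632457-70632706, minus strand: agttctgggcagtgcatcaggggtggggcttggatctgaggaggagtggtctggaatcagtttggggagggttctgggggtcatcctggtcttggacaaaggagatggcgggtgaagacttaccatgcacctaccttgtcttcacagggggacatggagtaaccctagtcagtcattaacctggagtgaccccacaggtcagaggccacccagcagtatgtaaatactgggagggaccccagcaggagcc

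The p53 motif, searched as the decamer that p53 binds in pairs, was found in 3 of the 13 windows available for 9 of the genes and in 7.13% of all 32851 windows. It matched at -73 and -51 from the upstream start of Cdkn1a (the capitals above), and these matches do not adjoin. The search took exact matches only. Directly after the match at -51, tgacatgttc starts with T where the motif asks for A or G, so it stays in lower case. Mdm2 had a single exact match at -186 from its start, and so did Trp53 at -75, whose window is not shown. The downstream start of Cdkn1a held GC boxes at -104 and -46 and no p53 motif. The Gdf15 window shown held none of the motifs searched, while the window of its other start held a CCAAT box and an E-box. A match or its absence describes only these letters. The counts are per gene, so reads from the starts of Cdkn1a cannot be separated.

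Across the libraries Cdkn1a was at 24.4, 53.7 and 55.2 CPM in the libraries labelled KO, replicates 1 to 3, against 33.8, 80.2 and 123 CPM in those labelled WT. The library labelled WT replicate 3, the deepest of the 6, was highest and KO replicate 1 lowest, a ratio of 5.05, and WT replicate 1 lay below KO replicates 2 and 3, so the groups overlapped. KO replicate 1 and WT replicate 1, the lowest libraries, are those whose names start with Old, while the other names start with a number. The part of this library series in the spread was not tested. The counts behind these levels ran from 430 to 2812, and the 95% Poisson intervals of the extremes, 22.1 to 26.8 CPM and 119 to 128 CPM, were far apart. The standard deviation of its log2 level over the 6 libraries was 0.83, larger than that of 99.3% of the 10536 genes with a mean of at least 5 CPM. The mean by library name was 44.4 ± 17.4 CPM for KO against 79.0 ± 44.7 CPM for WT (SD, n = 3 each). The log2 fold change of KO over WT was -0.83 (SE 0.52) with an adjusted p of 0.99993 in edgeR's quasi-likelihood test (two-sided, Benjamini-Hochberg over all genes tested), so the difference did not pass. Leaving out WT replicate 3 brought the value to -0.35 and leaving out KO replicate 1 brought it to -0.53, neither of which passed. Adding the Y-linked level as a covariate brought it to -1.47. That fit sets KO against WT replicate 3 alone, the only WT library with a high Y-linked level, so it cannot adjust the whole comparison for sex.

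Within each of the 3 replicate numbers, the KO library held less Cdkn1a than the WT library of that number, a count of 3 of 3. With the replicate number as a block the log2 fold change was -0.74 (SE 0.17). In edgeR's blocked fit its unadjusted p was 0.000736, where 2.19% of all genes tested were under 0.05, and its adjusted p was 0.999886. In the 4 libraries whose names start with a number the log2 fold change was -0.90 (SE 0.20), with an adjusted p of 0.517 in edgeR. With the library series as a covariate it was -0.76 (SE 0.18), with edgeR's adjusted p at 0.99994. Under the genotype field the sign turned, with 75.9 ± 49.5 CPM in libraries whose field says KO and 47.6 ± 12.0 CPM in those whose field says WT (SD, n = 3 each). That comparison gave 0.68 on the log2 scale (SE 0.57) with edgeR's adjusted p at 0.918, and the value moved to 0.13 when WT replicate 3 was left out and to 1.10 when KO replicate 1 was left out. Neither reading of the labels therefore gave a tested difference for the gene, and each gave the opposite direction.

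Cdkn1b encodes p27, a kinase inhibitor of quiescent cells, on chromosome 6 at 134920401 to 134925513. It was at 26.2, 31.0 and 31.5 CPM in the libraries labelled KO against 44.9, 29.3 and 35.1 CPM in those labelled WT. The library labelled WT replicate 1 was the highest, and WT replicate 2 lay within the KO range. Its log2 fold changes of -0.30 (SE 0.18) by library name and -0.24 (SE 0.18) by genotype field did not pass. By library name the value was -0.13 with WT replicate 1 left out. By genotype field it was -0.06 with WT replicate 1 left out, -0.15 with KO replicate 1 left out and -0.37 with WT replicate 3 left out. Unlike Cdkn1a, its levels stayed within a ratio of 1.71, and its highest library was among the lowest for Cdkn1a. KO replicate 1 was the lowest library for both genes.

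The INK4 genes differed from each other mainly in how much RNA they gave. Cdkn2a, which encodes p16Ink4a and, from another reading frame, p19Arf, lies on chromosome 4 at 89274471 to 89294653. It had 4, 2 and 3 counts in the libraries labelled KO against 8, 3 and 2 counts in those labelled WT. These are 0.227, 0.145 and 0.147 CPM against 0.479, 0.252 and 0.0876 CPM, and every 95% Poisson interval overlapped every other. The gene was too low to be tested with the rest, and an exact two-sided permutation test over the libraries gave p = 0.6 by library name and p = 0.8 by genotype field, where 3 against 3 libraries cannot go below 0.1. The counts are too few to compare the libraries, and reads of the p16Ink4a and p19Arf transcripts share the gene's row.

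Cdkn2b, the gene of p15Ink4b next to Cdkn2a (chromosome 4 at 89306299 to 89311039), was low as well. Its levels were 0.908, 1.30 and 0.880 CPM in the libraries labelled KO against 1.74, 1.76 and 1.14 CPM in those labelled WT, from 16 to 29 counts. KO was the lower library in 3 of 3 replicate numbers, but KO replicate 2 lay above WT replicate 3. The log2 fold change of -0.58 (SE 0.45) by library name and of -0.06 (SE 0.47) by genotype field did not pass. Cdkn2c, the gene of p18Ink4c (chromosome 4 at 109660876 to 109667189), was the INK4 gene with the highest level of the 3 and a steady one. It was at 20.6, 23.8 and 21.7 CPM in the libraries labelled KO against 28.2, 22.4 and 22.5 CPM in those labelled WT, with WT replicate 1 above the others. Its log2 fold change was -0.14 (SE 0.17) by library name and -0.17 (SE 0.16) by genotype field, and without WT replicate 1 these became -0.03 and -0.07.

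Trp53 and Mdm2, the core of the pathway, varied little beside Cdkn1a. Trp53 (chromosome 11 at 69580359 to 69591873) was at 32.3, 34.0 and 27.9 CPM in the libraries labelled KO against 19.5, 32.2 and 26.8 CPM in those labelled WT. WT replicate 1 was the lowest library, and the other 5 lay between 26.8 and 34.0 CPM. The gene was higher in the library labelled KO in 3 of 3 replicate numbers, with a log2 fold change of 0.26 (SE 0.20) by library name that did not pass, and 0.17 (SE 0.20) by genotype field. Without WT replicate 1 the values were 0.09 by library name and -0.03 by genotype field, and without WT replicate 2 the value by library name was 0.44.

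Mdm2 (chromosome 10 at 117688875 to 117710758) was at 65.9, 68.5 and 74.6 CPM in the libraries labelled KO against 76.0, 65.2 and 73.7 CPM in those labelled WT. Highest and lowest library differed by a ratio of 1.16, and only 4.76% of the 10536 genes compared had a smaller standard deviation. The log2 fold change was -0.04 (SE 0.14) by library name and -0.10 (SE 0.13) by genotype field. Thus the 2 genes of this set that are textbook targets of p53 and well counted, Cdkn1a and Mdm2, were the most and the least variable of the 7 members in that comparison. Their library profiles differed by a root mean square of 0.75 on the log2 scale.

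**Figure D2:**
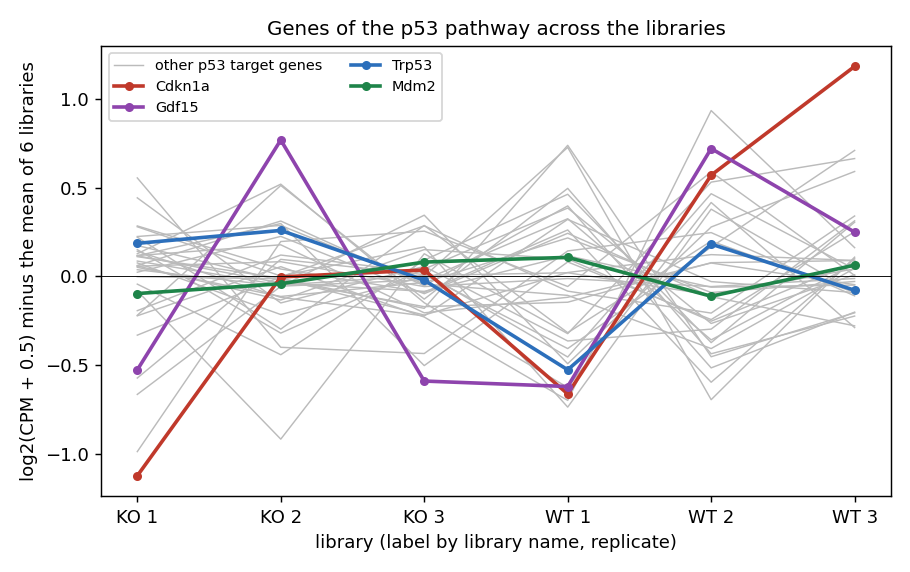
log2(CPM + 0.5) of each gene minus its mean over the 6 libraries, for Cdkn1a, Gdf15, Trp53, Mdm2 and, in grey, the 32 other p53 target genes tested. Lines only join values of 1 gene; the order of libraries carries no meaning. Cdkn1a runs from -1.13 in KO replicate 1 to 1.19 in WT replicate 3, while Mdm2 stays between -0.11 and 0.11.

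Gdf15, a secreted stress cytokine of the TGF-beta family and a target of p53 and of the integrated stress response, was at the low end. The gene (chromosome 8 at 70629393 to 70632456) had 13, 35 and 14 counts in the libraries labelled KO against 11, 29 and 37 counts in those labelled WT. These counts give 0.737, 2.54 and 0.684 CPM against 0.659, 2.44 and 1.62 CPM. KO replicate 2, WT replicate 2 and WT replicate 3 were the higher libraries, which is neither of the groupings that the labels give. On the log2 scale KO differed from WT by -0.27 (SE 0.63) by library name and by 0.32 (SE 0.63) by genotype field. Leaving out KO replicate 2 took the value by library name to -1.12, and leaving out WT replicate 2 took it to 0.17. The 3 libraries with more Gdf15 (KO replicate 2, WT replicates 2 and 3) also held the highest summed marker levels of 4 cell types, named after their values were seen. Fibroblast markers, with 1 of 6 at 0 in all libraries, were at 1730 to 2060 CPM in these 3 against 1430 to 1640 CPM in the others, and endothelial markers at 858 to 1010 against 798 to 842 CPM. Smooth muscle and pericyte markers were at 725 to 952 against 637 to 721 CPM, and macrophage markers at 342 to 375 against 268 to 314 CPM. The other cell types examined did not split this way. They were atrial and ventricular cardiomyocytes, B and T cells, epicardial cells, white adipocytes, Schwann and neuronal cells, and proliferating cells. Epicardial and mesothelial markers, for example, were at 180 CPM in KO replicate 3 and 157 CPM in KO replicate 2. The part of cell types in the result was not tested.

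Glb1 and Lmnb1, the markers read as enzyme stain and as loss of lamin B1, did not separate the groups. Glb1 (chromosome 9 at 114401076 to 114474898) was at 46.9, 45.7 and 38.2 CPM in the libraries labelled KO against 44.0, 39.3 and 41.3 CPM in those labelled WT, a ratio of 1.23 between extremes. The log2 fold change was 0.07 (SE 0.15) by library name and 0.00 (SE 0.14) by genotype field. Its exons share 165 bases with Tmppe on the same strand, and 94.5% of its exon bases are free. Lmnb1 (chromosome 18 at 56707813 to 56753424) was at 1.90, 3.23 and 2.48 CPM per kilobase in the libraries labelled KO against 3.38, 3.06 and 2.51 CPM per kilobase in those labelled WT. KO replicate 1 was lowest, below WT replicate 1 by more than the counting intervals (4.56 to 6.84 CPM against 8.54 to 11.6 CPM), while the other 4 libraries lay between them. Fitted log2 fold changes were -0.24 (SE 0.26) by library name and -0.28 (SE 0.24) by genotype field. By library name Lmnb1 came to -0.06 without KO replicate 1, -0.44 without KO replicate 2 and -0.14 without WT replicate 1. Its values by genotype field came to -0.12 without KO replicate 1 and -0.46 without WT replicate 2.

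Counted together, 0 of the 9 members tested passed by library name, where 0 of 14708 genes did (0%), and 0 of 9 passed by genotype field, where 2 of 14708 did (0.0136%). Limma-voom called 0 of 9 under both readings; DESeq2 called 0 of 9 by library name and 0 of the 6 to which it gave an adjusted p by genotype field, where Cdkn2b, Gdf15 and Lmnb1 had none. In edgeR's main fit, which has no block, an unadjusted p under 0.05 was held by 0 of 9 members by library name, against 1.49% of all genes tested (0.639% higher and 0.850% lower in KO), and by 0 of 9 by genotype field, against 5.69%. With the replicate block it was held by 1 of 9 by library name, Cdkn1a, against 2.19% of all genes tested. The levels of libraries labelled KO and WT overlapped for all 9, where 5.95% of genes tested had groups that did not overlap by library name (3.34% higher and 2.61% lower in KO) and 12.0% by genotype field (7.48% higher and 4.47% lower). By library name 2 of the 9, Trp53 and Glb1, had a log2 fold change above 0 and 7 below it, with a median of -0.24 against -0.02 over all genes tested, of which 45.5% were above 0. By genotype field Cdkn1a, Trp53 and Gdf15 were above 0, 3 of the 9, with a median of -0.06 against -0.01 and 48.1% of all genes above 0. Cdkn1a and Gdf15 lay on opposite sides of 0 in the readings, as did Glb1, whose value by genotype field rounds to 0.00.

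**Figure D3:**
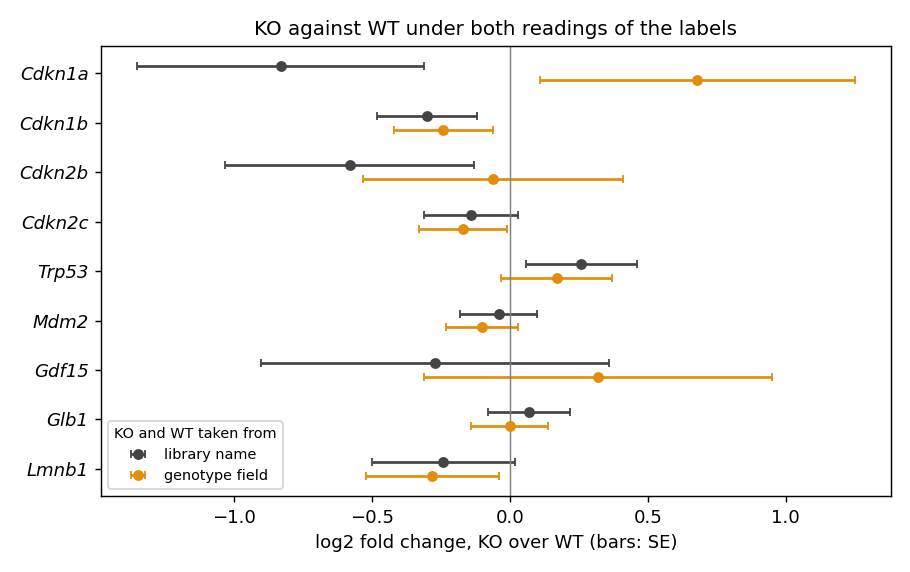
log2 fold change of KO over WT with its standard error for the 9 genes tested, with KO and WT taken from the library name or from the genotype field (n = 3 libraries each). Cdkn1a stands at -0.83 under the library name and at 0.68 under the genotype field, and no gene passed under either.

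Other target genes of p53 were set beside Cdkn1a library by library. Of 35 listed, 32 were tested, and their median ratio of highest to lowest library was 1.80, with 1 gene above the 5.05 of Cdkn1a (Psrc1, at 5.19 and a mean of 1.49 CPM). Fbxw7 and Tnfrsf18, named after their values were seen, were at 0 CPM in every library and so not tested. Of their gene bodies 0% is free of other genes, and the part of overlap in these values was not tested. Of the 32, 4 were highest in WT replicate 3, where Cdkn1a was highest, a share close to that of all genes tested (1707 of 14708). Of these 4, 3 were also lowest in KO replicate 1, as Cdkn1a was, and the share of all genes with both extremes is not given here. The 3 genes were Pmaip1, which encodes the pro-apoptotic protein NOXA, the death receptor gene Tnfrsf10b and the death receptor gene Fas, named after their values were seen. Pmaip1 was at 0.908, 1.74 and 1.61 CPM in the libraries labelled KO against 1.08, 1.85 and 2.93 CPM in those labelled WT. Its mean of 1.69 CPM is below the 5 CPM asked of genes in the wider search for likeness. Tnfrsf10b was at 8.28, 12.9 and 17.2 CPM in libraries labelled KO against 9.40, 16.4 and 20.5 CPM in those labelled WT. These are the p53 targets with profiles nearest to that of Cdkn1a, each at a root mean square difference of 0.36. Both were lowest in KO replicate 1 and WT replicate 1, the libraries whose names start with Old, as Cdkn1a was.

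Among all 10535 other genes with a mean of at least 5 CPM, the 4 whose centred log2 levels lay nearest to those of Cdkn1a over the 6 libraries were Ccl9, Gfpt2, Nfil3 and Lmcd1. Ccl9, a chemokine of myeloid cells in the mouse, had the smallest root mean square difference, 0.23. It was at 18.2, 30.2 and 28.2 CPM in the libraries labelled KO against 15.4, 38.3 and 74.0 CPM in those labelled WT, again with WT replicate 3 on top. The differences were 0.30 for Gfpt2, an enzyme of hexosamine synthesis, 0.31 for Nfil3, a bZIP transcription factor, and 0.35 for the LIM protein gene Lmcd1. KO replicate 1 and WT replicate 1, whose names start with Old, were the lowest libraries for each of the 4, as for Cdkn1a. With 6 libraries and so many genes compared, likeness of this kind is a description only. Their log2 fold changes by library name ran from -1.30 for Nfil3 to -0.43 for Lmcd1, and none passed in edgeR.

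By library name no gene of the wider pathway passed. Over 7 further lists, 146 genes were tested, edgeR, limma-voom and DESeq2 each called 0, and in edgeR 1 had an unadjusted p under 0.05, against 1.49% of all genes tested. That gene was Hgf, the hepatocyte growth factor, at 0.624, 1.09 and 0.636 CPM in libraries labelled KO against 1.92, 1.60 and 1.58 CPM in those labelled WT (-1.13 on the log2 scale, SE 0.45). These levels rest on few counts, 11, 15 and 13 against 32, 19 and 36. The groups did not overlap, as held for 5.95% of all genes tested. Of the 32 p53 targets tested 13 were above 0 and 19 below, with a median log2 fold change of -0.04. The members of that list with the smallest p were Plk3, a stress-induced polo-like kinase (-0.59, SE 0.33), Aen, a p53-induced nuclease (0.31, SE 0.18), and Btg2, an antiproliferative gene (-0.29, SE 0.22). Of 15 regulators of p53, 6 were above 0, with the checkpoint kinase gene Chek1 at -0.89 (SE 0.49), the acetyltransferase gene Ep300 at -0.44 (SE 0.27) and the kinase gene Hipk2 at -0.44 (SE 0.30). In Ep300 the library WT replicate 1 stood apart, at 54.2 CPM against 23.0 to 29.9 CPM in the other 5.

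The list of cyclin-dependent kinases, cyclins and pocket proteins had 12 of 20 above 0 and a median of 0.00. It also holds genes of other kinds, namely E2f genes, Skp2, Cks1b, Foxo1, Foxo3 and the inhibitor genes Cdkn1c and Cdkn2d. Examples are cyclin E1 (Ccne1) at 0.57 (SE 0.37), Foxo3, a transcription factor that induces Cdkn1b, at -0.40 (SE 0.26), and Cdk4 at 0.21 (SE 0.16). Foxo3 was at 160 CPM in WT replicate 1 and at 69.3 to 98.0 CPM in the other 5 libraries, and Ccne1 at 4.82 CPM in KO replicate 1 and at most at 3.26 CPM in the other 5. Of 12 genes known to repress the Ink4 locus, most of them Polycomb components, 3 were above 0, with the repressor Id1 at -0.37 (SE 0.20), the demethylase gene Kdm2b at -0.43 (SE 0.31) and Suz12 at -0.23 (SE 0.20). Single libraries stood apart here too, namely WT replicate 2 in Id1 (97.0 CPM against 52.6 to 66.9) and WT replicate 1 in Kdm2b (9.40 CPM against 4.35 to 5.73) and Suz12 (40.1 CPM against 23.2 to 31.7). Of 31 secretory phenotype genes 12 were above 0 (median -0.09), with Igfbp3 at -0.44 (SE 0.22) and the urokinase receptor gene Plaur at -0.66 (SE 0.38). Plaur was at 19.4 CPM in WT replicate 3 and at 5.87 to 9.33 CPM in the other 5 libraries. Ccl2 and Timp1 of the same list, named after their values were seen, were at 0 CPM in every library and so not tested. No part of their gene bodies (0%) is free of other genes, and the part of overlap was not tested. Of 16 nuclear lamina and chromatin genes 7 were above 0, with Hmgb2 at -0.32 (SE 0.22), Lmna at -0.27 (SE 0.23) and the lamina-binding gene Sun2 at -0.14 (SE 0.13). Of 20 lysosomal genes 5 were above 0, with the glucosidase gene Gaa at -0.32 (SE 0.17), Lamp2 at -0.23 (SE 0.20) and Glb1l2, a relative of Glb1, at 0.48 (SE 0.41). Lamp2 was at 290 CPM in WT replicate 1 and at 162 to 224 CPM in the other 5 libraries.

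Under the genotype field the chemokines Cxcl1 and Cxcl2 had the smallest p of the 31 secretory genes tested. Cxcl1, a neutrophil-attracting chemokine, was at 45.6, 47.6 and 48.2 CPM in the libraries whose field says KO (KO replicate 1, WT replicates 2 and 3) against 17.6, 24.2 and 28.4 CPM in those whose field says WT (WT replicate 1, KO replicates 2 and 3). The groups did not overlap, but the log2 fold change of 1.01 (SE 0.18) did not pass over all genes (adjusted p = 0.398 in edgeR). Its relative Cxcl2 was at 4.08, 4.37 and 10.6 CPM against 0.599, 1.16 and 3.23 CPM, a difference of 1.91 on the log2 scale (SE 0.60) with edgeR's adjusted p at 0.786. Il1b, the inflammatory cytokine interleukin-1 beta, was at 10.3, 17.9 and 24.7 CPM against 5.51, 7.90 and 11.5 CPM, which overlapped, with a difference of 1.08 on the log2 scale (SE 0.35) and edgeR's adjusted p again at 0.786. In all, 22 of 31 tested genes of the list were above 0 (median 0.13 against -0.01 over all genes), 6 had an unadjusted p under 0.05 above 0 and 2 below, against 4.34% and 1.35% of all genes tested. The 2 below were the metalloproteinase genes Mmp13 (-1.02, SE 0.38) and Mmp12 (-0.65, SE 0.28), named after their values were seen.

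With the replicate number as a block, 4 genes of the lists rose in the libraries whose field says KO, where 0.347% of the 14708 genes tested were called (0.326% higher and 0.0204% lower) and 9.33% had an unadjusted p under 0.05. They were Cxcl1 at 1.03 (SE 0.15, adjusted p = 0.00291), Cxcl2 at 2.05 (SE 0.32, adjusted p = 0.00475), Il1b at 1.06 (SE 0.19, adjusted p = 0.0195) and Lmna at 0.61 (SE 0.13, adjusted p = 0.0462), each higher in 3 of 3 pairs in edgeR's blocked fit. Lmna encodes lamins A and C and was at 97.7, 132 and 117 CPM in the libraries whose field says KO against 65.2, 85.4 and 77.1 CPM in those whose field says WT. It was not called without the block (0.61, SE 0.16, adjusted p = 0.675 in edgeR), nor were Cxcl1, Cxcl2 and Il1b in the same fit. The labels name no pairs of mice, so these calls rest on treating the replicate numbers as pairs. Of the 9 members, 0 were called with the block under either reading. The 3 libraries whose field says KO also held the higher summed level of the ventricular markers Myl2, Myl3, Irx4 and Hey2, none at 0 in all libraries, at 303 to 549 CPM against 90.3 to 113 CPM, and the part of this in the result was not tested. Macrophage markers were at 314 to 375 CPM in the libraries whose field says KO and 268 to 342 CPM in those whose field says WT, and this too was not tested.

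**Figure D4:**
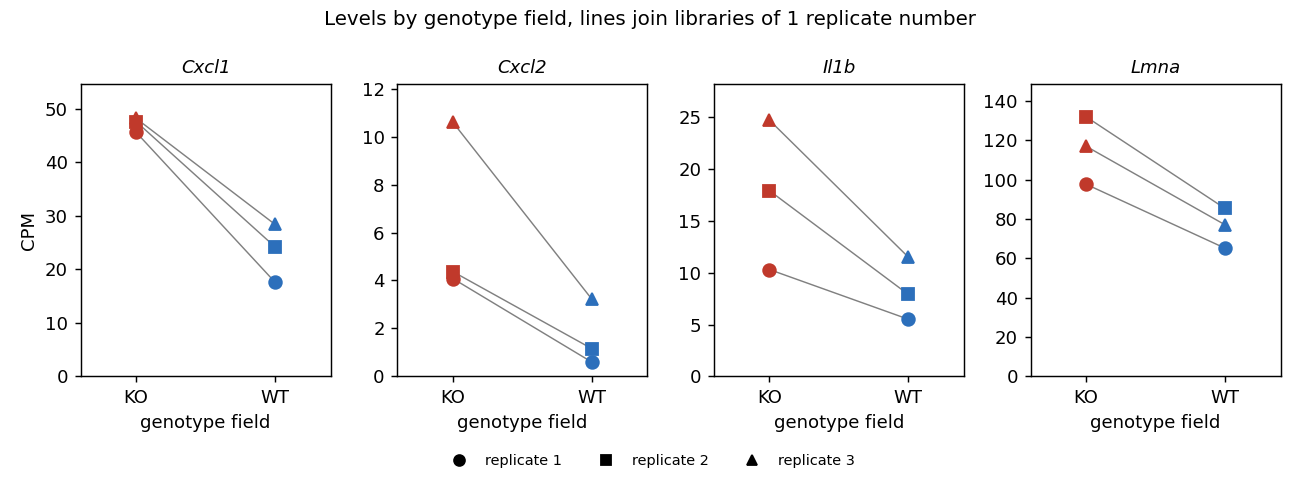
CPM of Cxcl1, Cxcl2, Il1b and Lmna with libraries placed by genotype field (KO left, WT right), each line joining the libraries of 1 replicate number. All 3 lines fall towards WT in each panel, and the groups overlap only for Il1b.

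Lysosomal and chromatin genes, the settings of Glb1 and Lmnb1, gave no other call under the genotype field. Of 20 lysosomal genes 11 were above 0 and 6 had groups that did not overlap, all higher in the libraries whose field says KO, against 7.48% of all genes tested. Tfeb, the transcription factor that drives lysosomal genes, was at 24.8 ± 4.23 CPM in libraries whose field says KO and 16.2 ± 2.19 CPM in those whose field says WT (SD, n = 3 each), a log2 fold change of 0.61 (SE 0.18). Gaa was at 0.41 (SE 0.15), while Glb1 itself was at 0.00. Hmga1, a chromatin protein gene, was at 19.0 ± 0.685 CPM in libraries whose field says KO and 12.9 ± 0.942 CPM in those whose field says WT (SD, n = 3 each), a log2 fold change of 0.56 (SE 0.16), and Hmgb1, a nuclear protein released by senescent cells, was at -0.22 (SE 0.13).

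Regulators and targets of p53 gave no call under the genotype field. Of 32 p53 targets 16 were above 0 (median 0.00), led by Plk3 at 0.74 (SE 0.29), the p53-induced receptor gene Eda2r at -0.69 (SE 0.31) and the polymerase gene Polk at -0.45 (SE 0.24). Eda2r was at 2.57 ± 0.260 CPM in libraries whose field says KO and 4.19 ± 1.09 CPM in those whose field says WT (SD, n = 3 each), without overlap. Of 15 regulators of p53, 3 were above 0, where 48.1% of all genes tested were. The damage kinase genes Atm and Atr were at -0.74 (SE 0.36) and -0.39 (SE 0.25), and the deacetylase gene Sirt1 at -0.37 (SE 0.27). WT replicate 1, whose field says WT, was the highest library for 8 of the 15, against 4023 of all 14708 genes tested. It was highest for Atr (14.7 CPM) and Sirt1 (19.5 CPM) as well. In Atm the library WT replicate 1 stood apart, at 11.5 CPM against 3.45 to 5.79 CPM in the other 5 libraries. Of 20 genes tested in the list of kinases, cyclins and pocket proteins 13 were above 0. Among them were cyclin D3 (Ccnd3) at 0.34 (SE 0.13), E2f4 at 0.29 (SE 0.14) and Cdkn2d, a further INK4 gene, at 0.36 (SE 0.20). Of 12 repressors of the Ink4 locus 5 were above 0, with Id1 at 0.41 (SE 0.19), Ring1 at 0.35 (SE 0.17) and Suz12 at -0.28 (SE 0.19).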

How the data were processed

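Reads of 6 atrial libraries were counted per Ensembl gene by the authors, and the deposited table holds raw, unscaled counts. The submitters' processing notes name FastQC 0.11.5, MultiQC 1.7, HISAT2 2.1.0, featureCounts 1.5.0-p3 and the build GRCm38; which annotation release and strand option they used is not given in the sources used here. Where genes overlap, reads can be lost or shared. Positions, exon lengths and overlaps came from GENCODE M21 (GRCm38), promoters from RefSeq.

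The members and lists were chosen with earlier results of these data known. The labels call the replicates separate mice. Fits used edgeR 4.0.16 in R 4.3.3 (quasi-likelihood F test, robust, TMM factors 0.946 to 1.03, filterByExpr, Benjamini-Hochberg over 14708 genes, threshold 0.05); the SE is the log2 fold change over the root of F. CPM is edgeR's count scaled by library total and TMM factor; centred log2 levels use log2(CPM + 0.5). Intervals are 95% Poisson and cover counting error only. DESeq2 1.42.0 and limma 3.58.1 were alternatives. The fits were tested on simulated data. Deviations from group means of same-numbered libraries correlated at 0.16, 0.17 and 0.12 by library name and 0.31, 0.26 and 0.12 by genotype field. The numbers, taken from the sample titles, were treated as pairs in the blocked fits. The labels name no pairs, and no such correlation is given for libraries of different numbers. The number also follows library series, since KO replicate 1 and WT replicate 1 are the libraries whose names start with Old. Named genes were the members, Prkce, the 3 with the smallest p of each list and reading, any list gene past the threshold, and the 5 nearest to Cdkn1a with a mean of at least 5 CPM; others are said to be chosen after their values were seen, and 2 genes under this rule are not reported here.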

Additional observations from a re-analysis of the deposited data

How the results depend on the processing

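The count of members called was 0 under all alternatives and both readings: other size factors, DESeq2, limma-voom, other low-count filters, the replicate block, covariates for library series and Y-linked level, removal of abundant genes, each library left out, the libraries at odds with Prkce left out, the numbered series alone and an adjusted p of 0.1. For the 146 pathway genes it was 0 in each of these by library name; by genotype field it was 1 with DESeq2, 1 with no low-count filter and 1 with the library series as covariate (Cxcl1 each time), 4 with the replicate block, and 0 otherwise. The cause was not tested. DESeq2 gave no adjusted p to Cdkn2b, Gdf15 and Lmnb1 by genotype field. The replicate block changed no other call. Of 324 member fold changes recomputed, 297 kept their sign and 27 turned, all of them uncalled. By library name, leaving out 1 library, or both of those at odds with Prkce, gave log2 fold changes of -0.15 to 0.01 for Mdm2 and -1.12 to 0.48 for Gdf15. In the numbered series alone Cdkn2c was 0.02, Mdm2 0.05 and Lmnb1 0.04. Lmnb1 was 0.01 with the Y-linked covariate, which sets KO against WT replicate 3 alone. By genotype field the same omissions gave -0.35 to 0.20 for Cdkn2b, -0.08 to 0.06 for Glb1, -0.10 to 1.22 for Gdf15 and -0.03 to 0.43 for Trp53. In the numbered series alone Cdkn1b was 0.04, Cdkn2b 0.40 and Trp53 -0.07; Glb1 was 0.00 with limma-voom. Counts of 2 to 8 for Cdkn2a and of 11 to 37 for Gdf15 limit what these genes can show.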
